A study of Mus musculus with 12 samples.

Results

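The genes described here are the enzymes of glycolysis, the transporters of glucose and lactate, the enzymes at the pyruvate branch point, and a set of hypoxia-inducible factors and their targets. Members were the rows of the deposited expression table whose mouse symbol was among 36 named genes. They took 37 of the 55092 rows, because 2 Ensembl genes carry the symbol Aldoa. Of the 37 rows, 34 had an FPKM (fragments scaled for gene length and library depth) of at least 1 in at least 3 libraries and were tested, among 14676 rows in all. All 34 would have met that limit without the CSA libraries described next. Aldoc, Ankrd37 and the second Aldoa gene lay under it and were not in that fit. Aldoc entered the isoenzyme shares, and both Aldoc and the second Aldoa gene entered the sum over enzyme rows.

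RNA was sequenced from the abdominal aorta of 12 male mice, 3 in each of 4 groups. CFS and CFA are CCN2fl/fl mice without Cre, given saline or Ang II (angiotensin II, 500 ng/kg/min) by mini-osmotic pump for 7 days. CSS and CSA are CCN2SMC∆ mice, floxed animals that also carry the Myh11-Cre-ERT2 transgene, given saline or Ang II in the same way. All 4 groups share the floxed Ccn2 alleles and the tamoxifen, 5 doses begun at 8 weeks of age and followed by 2 weeks of washout. CCN2, also called CTGF, is a secreted matrix protein. Myh11 drives the recombinase in smooth muscle of every organ, so that the deletion is not limited to the aorta, and no Cre carriers with intact Ccn2 are among the 12 libraries. Each library is 1 mouse, named here by its group and number.

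Glycolysis splits glucose into pyruvate in the cytosol, and most steps are carried by families of isoenzymes that tissues use in different proportions. Pyruvate is then reduced to lactate, which leaves the cell through monocarboxylate transporters, or it enters the mitochondrion. Under low oxygen the factors encoded by Hif1a and Epas1 escape degradation and activate many of these genes. In the arterial wall, smooth muscle makes lactate even when oxygen is ample, endothelium is rich in Epas1, and activated macrophages and neutrophils depend heavily on glycolysis.

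The 12 libraries held 14558580 to 23107807 recovered fragments, with CSA03 the shallowest. CSA03 also stood apart from its group, at a root mean square log2 difference over all tested genes of 1.21 and 1.199 from CSA01 and CSA02, which differed by 0.505, while mice of the other groups differed by 0.586 to 0.743 within their group. Ccn2 was listed at 710, 1108 and 480.1 FPKM in CFS, at 436, 639.9 and 587 in CSS, at 1013, 1105 and 564 in CFA, and at 255, 331 and 399 in CSA. Its 3 CSA libraries lay below the 3 CFA libraries, with a log2 fold change of −1.41 (limma, Benjamini-Hochberg adjusted p = 0.00622). The two-sided exact permutation p was 0.1, the smallest that 3 against 3 mice allow. CSS and CFS overlapped in Ccn2, at a log2 fold change of −0.40 (limma, Benjamini-Hochberg adjusted p = 1). The 8 smooth muscle markers, led by Acta2, summed to 5532 to 10305 FPKM in the CFS, CSS and CFA libraries and to 800 to 959 in CSA, and all 8 passed the test as lower in CSA than in CFA. The 8 macrophage markers, led by Lyz2, C1qa and C1qb, summed to 257 to 712 FPKM outside CSA and to 2251 to 2441 in CSA, with 7 of 8 passing as higher. The other, Cd163, had a lower mean in CSA than in CFA (6.63 against 14.8 FPKM, log2 fold change −1.10) and did not pass. Among those that passed, Mrc1 overlapped between CSA and CFA. The 8 neutrophil markers, led by S100a9 and S100a8, summed to 7.99 to 33.1 FPKM outside CSA and to 533 to 581 in CSA, with Ly6g under 1 FPKM in every library. All 7 tested neutrophil markers passed as higher, but 3 of them (Cxcr2, Retnlg and Mmp8) met the limit on low values only through the CSA libraries and had to differ. Other markers moved between CSA and CFA as well. All 5 tested erythrocyte markers were lower (median log2 fold change −3.01), while of 6 fibroblast markers Lum and Col1a1 were higher and Pi16 and Dpt lower. Of 6 cell division markers 3 were higher (median 1.59), and 3 of the 6 (Ccnb1, Cdk1 and Birc5) met the limit only through CSA. The 4 T cell markers, all higher, and both tested B cell markers, 1 of them higher, also met it only through CSA. Each member value below is a mean over this mixture of cells, in which fewer cells of a type and less RNA per cell cannot be told apart. The part of these cell markers in the members' differences was not tested.

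Under Ang II, 12 of the 34 tested members differed between CSA and CFA at an adjusted p under 0.05, the limit meant below by passing the test, and all 12 also passed without CSA03. Higher in CSA were Hk3, Slc16a1, Pfkfb4, Hif1a, Ldha and Pgk1. Lower in CSA were Epas1, Pfkm, Ldhb, Ndrg1, Pfkp and Aldoa. The 6 higher members are 17.6% of those tested, beside 19.5% of all tested genes, and the 6 lower members are again 17.6%, beside 21.2% of all. The share of all tested genes includes 1206 rows that met the limit on low values only with the CSA libraries, and over the 13470 that met it without them 15.5% were higher and 23.1% lower. The members' shares thus lay near those of the whole table. Without CSA03, 11 members were higher (32.4%, beside 21.3% of all tested genes) and 6 lower (17.6%, beside 25.7%), and with array weights 12 were higher (35.3%, beside 28.2%) and 7 lower (20.6%, beside 29.1%). The members' median log2 fold change over all libraries was −0.02, against −0.04 over all tested genes. With the study's additional fold limit, an absolute log2 fold change over 1.5, the count was 3 higher (Hk3, Slc16a1, Pfkfb4; 8.95% of all tested genes) and 3 lower (Epas1, Pfkm, Ldhb; 8.27% of all). The 3 CSA and the 3 CFA libraries did not overlap for 7 members higher in CSA and 7 lower, beside 23.4% and 25.1% of all tested genes. The 7 higher members include Gapdh, whose values are not read below as a transcript level. At the lactate dehydrogenase step 1 gene passed as higher and the other as lower, as the intervals of all members by role show.

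**Figure D1:**
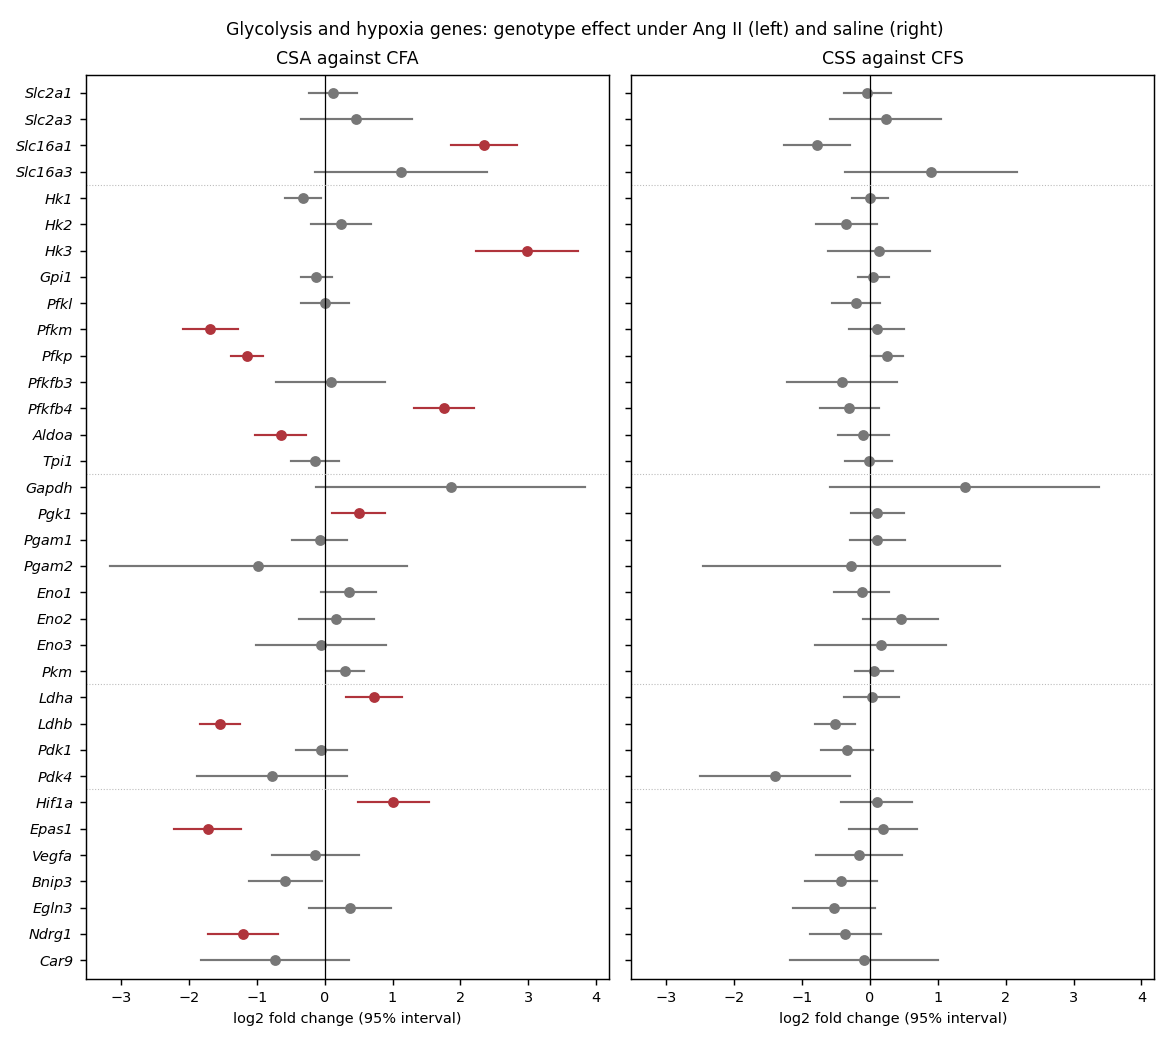
Log2 fold change (point) with its 95% interval (line) of the 34 tested members, for CSA against CFA on the left and CSS against CFS on the right, with dotted lines between transporters, upper glycolysis, lower glycolysis, pyruvate enzymes and hypoxia genes. Red marks an adjusted p under 0.05: 12 members on the left and 0 on the right, with Hk3 farthest right at 2.98 and Epas1 farthest left at −1.72.

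The promoters of members that changed in opposite directions are shown first, with the short core that hypoxia-inducible factors bind. RefSeq gave windows of 300 bases (250 before and 50 after each start, GRCm38.p6) for 33 of the 36 symbols, 47 windows in all. The letters ACGTG and GCGTG were searched on both strands, each match counted once per strand, so that the palindrome CACGTG counts as 2. At least 1 of these cores stood in 37 of the 47 member windows (78.7%) and in 43.8% of all 32851 windows of the table. ACGTG was in 51.1% of the member windows and 19.6% of all, and GCGTG in 53.2% and 32.4%. Capitals mark the cores on either strand. Slc16a1, Hk3 and Pfkfb4 are shown as the members that passed the fold limit as higher in CSA, and Ldha and Ldhb as 2 genes of 1 enzyme that moved apart.
Slc16a1 promoter, chr3:104638414-104638713, plus strand: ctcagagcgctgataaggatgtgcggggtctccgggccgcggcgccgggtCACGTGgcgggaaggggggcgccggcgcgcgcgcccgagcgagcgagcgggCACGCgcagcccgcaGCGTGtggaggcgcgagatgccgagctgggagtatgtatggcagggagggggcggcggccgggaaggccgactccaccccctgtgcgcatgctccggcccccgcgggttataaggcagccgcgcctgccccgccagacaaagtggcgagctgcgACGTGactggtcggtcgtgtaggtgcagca
Hk3 promoter, chr13:55021336-55021635, minus strand: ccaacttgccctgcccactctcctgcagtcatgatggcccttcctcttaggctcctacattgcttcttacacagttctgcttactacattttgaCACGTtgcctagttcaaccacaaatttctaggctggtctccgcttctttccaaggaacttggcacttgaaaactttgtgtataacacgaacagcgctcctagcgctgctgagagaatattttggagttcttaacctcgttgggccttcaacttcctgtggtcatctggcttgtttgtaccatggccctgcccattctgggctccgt
Pfkfb4 promoter, chr9:108991652-108991951, plus strand: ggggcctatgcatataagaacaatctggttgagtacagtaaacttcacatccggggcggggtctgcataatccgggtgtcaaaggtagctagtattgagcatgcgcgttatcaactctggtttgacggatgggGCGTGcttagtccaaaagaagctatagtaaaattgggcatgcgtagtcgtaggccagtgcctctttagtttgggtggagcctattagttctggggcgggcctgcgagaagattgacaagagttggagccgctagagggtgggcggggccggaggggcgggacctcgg
Ldha promoter, chr7:46845554-46845853, plus strand: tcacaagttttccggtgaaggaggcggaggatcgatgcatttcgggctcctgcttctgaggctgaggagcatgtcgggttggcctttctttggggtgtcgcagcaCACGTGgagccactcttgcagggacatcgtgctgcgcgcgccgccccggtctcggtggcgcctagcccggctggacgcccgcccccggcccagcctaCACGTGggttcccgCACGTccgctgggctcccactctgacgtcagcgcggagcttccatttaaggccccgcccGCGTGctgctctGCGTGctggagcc
Ldhb promoter, chr6:142507908-142508207, minus strand: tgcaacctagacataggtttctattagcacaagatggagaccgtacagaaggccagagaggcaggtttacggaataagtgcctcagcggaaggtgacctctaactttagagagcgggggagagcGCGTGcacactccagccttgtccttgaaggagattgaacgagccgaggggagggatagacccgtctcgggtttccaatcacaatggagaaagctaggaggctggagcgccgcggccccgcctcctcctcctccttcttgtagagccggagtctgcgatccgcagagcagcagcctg

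Slc16a1 held 5 matches, Hk3 1, Pfkfb4 1, this Ldha window 7 (the other Ldha window held 2) and Ldhb 1. Among other members that passed as lower, Pfkm held 3, 2, 1 and 0 matches in its 4 windows, Pfkp 4 in 1 window and Aldoa 1, 1 and 0 in 3, while among the higher ones Hif1a held 3 and Pgk1 2. Windows 2 and 3 of Pfkm overlap, as do windows 1 and 2 of Aldoa and windows 2 and 3 of Eno1, so that 1 core can be counted in both. RefSeq windows of Slc2a3, Epas1 and Ndrg1 were not used here. A match describes these letters in this window only.

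The transporters that move glucose in and lactate out were led by Slc16a1, which encodes the monocarboxylate transporter MCT1 (chr3:104638668-104658462, plus strand). It was listed at 13.6, 13.0 and 13.9 FPKM in CSA and at 2.46, 2.90 and 2.40 in CFA. In the saline groups it was at 2.38, 2.75 and 4.69 in CFS and at 1.75, 2.06 and 1.58 in CSS. All 3 CSA libraries stood above the other 9, and every CSS library stood below every CFS library. The log2 fold change of CSA against CFA was 2.35 ± 0.22 (SE), about 5.08-fold (limma, Benjamini-Hochberg adjusted p = 1.39e-05). Slc16a3, which encodes the lactate exporter MCT4, was at 13.9, 10.4 and 2.0 FPKM in CSA and at 3.13, 4.29 and 2.01 in CFA. Library CSA03 lay at the level of the lowest CFA mouse, and the log2 fold change of 1.12 did not pass (limma, Benjamini-Hochberg adjusted p = 0.142). Without CSA03 it was 1.97 (limma, Benjamini-Hochberg adjusted p = 0.000234). The glucose transporter genes Slc2a1 (GLUT1) and Slc2a3 (GLUT3) did not pass, at log2 fold changes of 0.12 (95% interval −0.23 to 0.47) and 0.47 (−0.35 to 1.29). Slc2a1 lay between 9.29 and 14.0 FPKM in all 12 libraries. Slc2a3 was at 2.17, 2.03 and 0.856 FPKM in CSA, against 0.956 to 1.22 in CFA, and passed without CSA03 (log2 fold change 0.87, limma, Benjamini-Hochberg adjusted p = 0.0435).

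Upper glycolysis, from hexokinase to triose phosphate isomerase, held 5 of the 12 changes. Of its 11 tested members 2 were higher (18.2%) and 3 lower (27.3%). Of all genes that met the limit on low values without CSA, 15.5% were higher and 23.1% lower. Hexokinases trap glucose as its 6-phosphate, and Hk3 is the isoenzyme best known from myeloid cells (chr13:55005985-55021385, minus strand). Hk3 was at 10.3, 8.83 and 5.05 FPKM in CSA and at 0.748, 1.25 and 0.743 in CFA. The 6 saline libraries ranged from 0.583 to 1.23, so that CSA alone rose above the rest. Its log2 fold change of 2.98 ± 0.34 (SE), 7.91-fold, was the largest among the members in either direction (limma, Benjamini-Hochberg adjusted p = 5.37e-05). Hk1, the widely expressed isoenzyme, was at 10.5, 9.23 and 8.34 FPKM in CSA against 11.6, 11.5 and 12.03 in CFA. These groups did not overlap, yet Hk1 missed the limit (log2 fold change −0.32, limma, Benjamini-Hochberg adjusted p = 0.0511). It passed in 3 of 20 alternative fits, with a mean FPKM of at least 5, with array weights and without CSA01 (limma, Benjamini-Hochberg adjusted p = 0.0478, 0.0261 and 0.0264). Hk2, the insulin-responsive isoenzyme, did not pass (0.24, interval −0.21 to 0.69), with 6.43 to 7.84 FPKM in CSA and 5.12 to 7.21 in CFA. Gpi1, glucose-6-phosphate isomerase, did not pass either (−0.12, interval −0.35 to 0.11).

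Phosphofructokinase commits sugar to glycolysis, and 2 of its 3 genes passed, both as lower. Pfkm, the muscle type (chr15:98092589-98132451, plus strand), was at 7.58, 7.33 and 4.73 FPKM in CSA and at 22.5, 19.3 and 20.6 in CFA. The other 2 groups lay between 16.7 and 22.9, well above CSA, and the log2 fold change of −1.68 ± 0.18 (SE) corresponds to a level 3.21-fold lower (limma, Benjamini-Hochberg adjusted p = 4.05e-05). Pfkp, the platelet type, was at 7.00, 6.73 and 7.11 FPKM in CSA and at 14.99, 14.2 and 17.4 in CFA. It fell by 1.14 on the log2 scale (limma, Benjamini-Hochberg adjusted p = 1.36e-05). Pfkl, the liver type, was at 8.34, 9.10 and 6.13 FPKM in CSA and at 6.67, 8.07 and 8.54 in CFA. These 2 groups of Pfkl overlapped, and the log2 fold change was 0.01 with an interval of −0.35 to 0.36. With array weights it passed as higher (0.29, limma, Benjamini-Hochberg adjusted p = 0.0408).

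Pfkfb4 and Pfkfb3 encode bifunctional enzymes that make and break down fructose 2,6-bisphosphate, an activator of phosphofructokinase. Pfkfb4 (chr9:108991778-109032228, plus strand) was at 12.6, 12.2 and 7.48 FPKM in CSA and at 2.95, 3.10 and 3.07 in CFA. The other 6 libraries were at 2.03 to 3.31, and the log2 fold change was 1.76 ± 0.20 (SE), 3.38-fold (limma, Benjamini-Hochberg adjusted p = 5.02e-05). Pfkfb3 lay between 12.5 and 14.1 FPKM in CSA and between 10.8 and 14.2 in CFA (log2 fold change 0.09, interval −0.72 to 0.90). Its highest value, 29.2 FPKM, was in CFS70, the library with the highest sum of the 8 adipocyte markers (648 FPKM, against 31.1 to 286 in the other 11), and the part of adipocyte RNA was not tested.

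Aldolase splits the 6-carbon sugar. Aldoa, at chr7:126795234-126800751 on the minus strand, had the highest mean of any member in CFS, with 195, 197 and 236 FPKM. It was at 200.3, 202 and 185 in CSS, at 149.9, 165 and 171 in CFA, and at 117, 121 and 77.4 in CSA. CSA lay below the other 9 libraries, and the log2 fold change against CFA was −0.65 ± 0.17 (limma, Benjamini-Hochberg adjusted p = 0.0112). With CFA and CSA alone in the fit the adjusted p of limma was 0.0759 by Benjamini-Hochberg. The second gene named Aldoa, which begins upstream of the first on the same strand, was listed at 0.354 to 2.97 FPKM, and Aldoc at 0.0825 to 0.589. Tpi1, triose phosphate isomerase, did not pass (−0.14, interval −0.49 to 0.21), with CSA03 lowest at 36.1 FPKM and the other 11 libraries at 47.8 to 62.4. Without CSA03 it was 0.041.

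In lower glycolysis, from glyceraldehyde phosphate to pyruvate, 1 of 8 tested members passed, as higher (12.5%), and 0 were lower. The shares of all genes that met the limit on low values without CSA were 15.5% higher and 23.1% lower. Pgk1, phosphoglycerate kinase, was at 53.6, 63.8 and 47.6 FPKM in CSA and at 37.6, 47.0 and 32.3 in CFA. The 3 CSA values stood above the 3 CFA values, at a log2 fold change of 0.50 ± 0.18 (limma, Benjamini-Hochberg adjusted p = 0.0426). This is the least firm of the 12 calls, since it was lost in 12 of 20 alternative fits, where the adjusted p of limma by Benjamini-Hochberg reached 0.155. Pkm, pyruvate kinase, had the highest mean of any member in CSA (108 FPKM, against 105 for Aldoa), at 112, 116 and 96.4 FPKM, against 86.7, 100.05 and 76.8 in CFA. Its log2 fold change of 0.31 missed the limit (limma, Benjamini-Hochberg adjusted p = 0.0775). Eno1, the widely expressed enolase, was at 63.2, 68.7 and 46.2 FPKM in CSA and at 40.7, 53.8 and 43.8 in CFA (log2 fold change 0.35, limma, Benjamini-Hochberg adjusted p = 0.148). For both genes CSA03 was the lowest CSA library. Without it Pkm and Eno1 passed, at log2 fold changes of 0.39 and 0.52 (limma, Benjamini-Hochberg adjusted p = 0.0159 and 0.0194). Pgam1 and the neuronal enolase Eno2 did not pass (−0.07, interval −0.47 to 0.33, and 0.17, interval −0.38 to 0.73).

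Gapdh, which normally ranks among the most abundant transcripts of any tissue, was listed at 0.776 to 2.81 FPKM in 10 libraries, at 12.8 in CSS55 and at 14.5 in CSA02. Of its longest transcript, 88.0% lies in stretches at least 95% identical to 1 or more of 77 other annotated genes. Its values are not read as a transcript level, and its log2 fold change of 1.86 did not pass (limma, Benjamini-Hochberg adjusted p = 0.124), but did without CSA03 (2.55, limma, Benjamini-Hochberg adjusted p = 0.0486). Near-identical stretches also cover 94.2% of Bnip3, 85.6% of Eno1, 76.8% of Ldhb, 68.8% of Pgk1, 65.5% of Pkm and 55.04% of Ldha, so that the levels of these genes are uncertain. Gpi1 (50.2%), Pgam1 (43.1%), Tpi1 (19.3%), Pfkp (18.1%) and Ndrg1 (11.6%) shared less.

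Pgam2 and Eno3 encode the muscle forms of phosphoglycerate mutase and enolase, and both were highest in the same 2 libraries, which belong to different groups. Pgam2 was at 6.96 FPKM in CFS68 and 11.9 in CSS55, and between 0.155 and 4.75 in the other 10. Every CFS library of Pgam2 (3.69 to 6.96 FPKM) stood above every CFA library (2.64 to 3.50), a difference that did not pass the test. Eno3 was at 13.9 in CFS68 and 20.3 in CSS55, and between 4.24 and 7.90 in the others. The same 2 libraries held the 12 skeletal muscle markers at a summed 219.5 and 350.3 FPKM, led by Acta1, against 3.64 to 6.70 in the other 10, with Tnnc2 at 0 in 11 libraries. The second Aldoa gene was likewise highest in these 2, at 1.08 and 2.97 FPKM. Neither Pgam2 nor Eno3 passed between CSA and CFA, whose 6 libraries lack this signal, and Pgam2 was at 0.155 FPKM in CSA03. The log2 fold change of Pgam2 was −0.97 with all libraries and 0.37 without CSA03, and that of Eno3 −0.05 and 0.20. All 12 calls except Pgk1 were also made without CFS68 and CSS55.

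**Figure D2:**
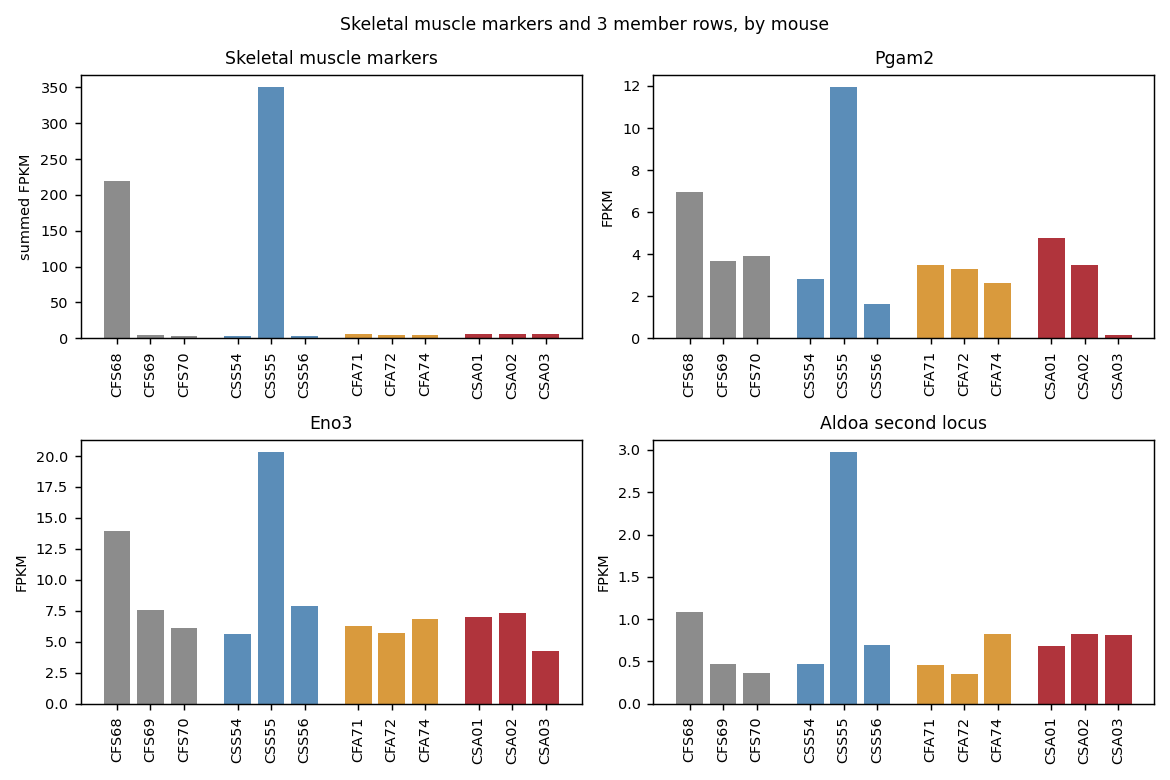
Summed FPKM of 12 skeletal muscle markers (top left) and FPKM of Pgam2, Eno3 and the second Aldoa gene, 1 bar per mouse, coloured by group (CFS grey, CSS blue, CFA orange, CSA red). The bars of CFS68 and CSS55 are the tallest in all 4 panels, at 219.5 and 350.3 summed FPKM in the first.

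At the pyruvate branch point the 2 lactate dehydrogenase genes moved in opposite directions. Ldha encodes the subunit that favours lactate formation, and Ldhb the subunit of heart and other oxidative tissues. Ldha (chr7:46841475-46855627, plus strand) was at 98.5, 105 and 74.4 FPKM in CSA and at 54.03, 63.7 and 48.9 in CFA. Every CSA value was above every value of the other 3 groups, whose highest was 68.9, and the log2 fold change was 0.73 ± 0.19 (limma, Benjamini-Hochberg adjusted p = 0.00876). Ldhb (chr6:142490249-142507957, minus strand) was at 10.4, 10.2 and 11.1 FPKM in CSA and at 28.0, 28.2 and 37.6 in CFA. In saline it was at 44.8, 49.1 and 40.9 in CFS and at 33.7, 30.1 and 30.7 in CSS. CFS stood highest without overlap with any other group, CSS and CFA shared a range, and CSA stood lowest. The log2 fold change of CSA against CFA was −1.54 ± 0.14, 2.91-fold lower (limma, Benjamini-Hochberg adjusted p = 9.25e-06), the smallest p of any member.

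Pyruvate dehydrogenase kinases inhibit pyruvate dehydrogenase in the mitochondrion. Pdk1, a classical hypoxia target, was at 3.62, 3.87 and 4.64 FPKM in CSA and at 3.88, 3.83 and 4.86 in CFA, with a log2 fold change of −0.05 (interval −0.43 to 0.33). Pdk4, the fasting-induced kinase, varied widely, from 7.90 to 19.3 FPKM in CSA, 10.2 to 35.7 in CFA, 16.4 to 30.9 in CSS and 32.5 to 71.4 in CFS. Neither gene passed between CSA and CFA. Pdk4 was at 71.4 FPKM in CFS70 and at 66.6 in CFS69, where the adipocyte markers summed to 648 and 211 FPKM.

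The transcripts of Hif1a and Epas1, which encode hypoxia-inducible factors, moved in opposite directions. Hif1a (chr12:73901375-73947530, plus strand) was at 54.6, 44.9 and 85.1 FPKM in CSA and at 36.9, 31.3 and 22.1 in CFA. All 3 CSA libraries exceeded the other 9, and the log2 fold change was 1.01 ± 0.24, 2.01-fold (limma, Benjamini-Hochberg adjusted p = 0.00574). Epas1 (chr17:86753700-86833410, plus strand) was at 32.8, 26.0 and 32.0 FPKM in CSA and at 95.6, 77.8 and 133 in CFA. In CFS it was at 160, 103 and 161 and in CSS at 174, 146 and 157, and no library of these groups came near CSA. Its log2 fold change was −1.72 ± 0.22, 3.30-fold lower (limma, Benjamini-Hochberg adjusted p = 0.00013), the largest fall among the members. Endothelial markers, in whose cells Epas1 is typically high, summed to 112 to 142 FPKM in CSA and 198 to 429 in CFA, with 3 of 7 passing as lower and 1 as higher. The lowest sum of these markers, 93.0 FPKM, was in CFS69. The part of endothelial RNA in the Epas1 difference was not tested.

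Of the 5 tested hypoxia-response genes below, other than the factors themselves, Ndrg1 alone passed. Ndrg1, a stress-responsive gene induced by hypoxia (chr15:66929318-66969640, minus strand), was at 13.6, 12 and 12.1 FPKM in CSA and at 27.3, 19.7 and 45.0 in CFA. It fell by 1.2 on the log2 scale (limma, Benjamini-Hochberg adjusted p = 0.00195). Vegfa, the endothelial growth factor, was at 20.9, 17.1 and 10.4 FPKM in CSA and at 15.3, 17.8 and 18.2 in CFA, an overlap with a log2 fold change of −0.14 (interval −0.77 to 0.50), or 0.15 without CSA03. Bnip3, a mitophagy receptor, was at 7.74, 11.7 and 7.78 FPKM in CSA and at 10.8, 13.5 and 16.2 in CFA, and its log2 fold change of −0.58 missed the limit (limma, Benjamini-Hochberg adjusted p = 0.0786). Egln3, an oxygen-sensing prolyl hydroxylase, was at 2.50, 2.04 and 1.84 FPKM in CSA and at 1.16 to 1.91 in CFA (0.37, interval −0.23 to 0.97). Car9, carbonic anhydrase 9 and a common marker of hypoxic tissue, was at 1.67, 1.23 and 0.255 FPKM in CSA and at 1.21 to 1.61 in CFA (−0.73, interval −1.81 to 0.35). Without CSA03 the log2 fold change of Car9 was −0.027. Ankrd37 was at 0.123 to 0.796 FPKM across the 12 libraries and was not tested. Of the 7 tested hypoxia-response members 1 was higher in CSA (14.3%) and 2 were lower (28.6%). Among all genes that met the limit on low values without CSA, 15.5% were higher and 23.1% lower. The median log2 fold change of the 7 was −0.58, against −0.04 over all tested genes.

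**Figure D3:**
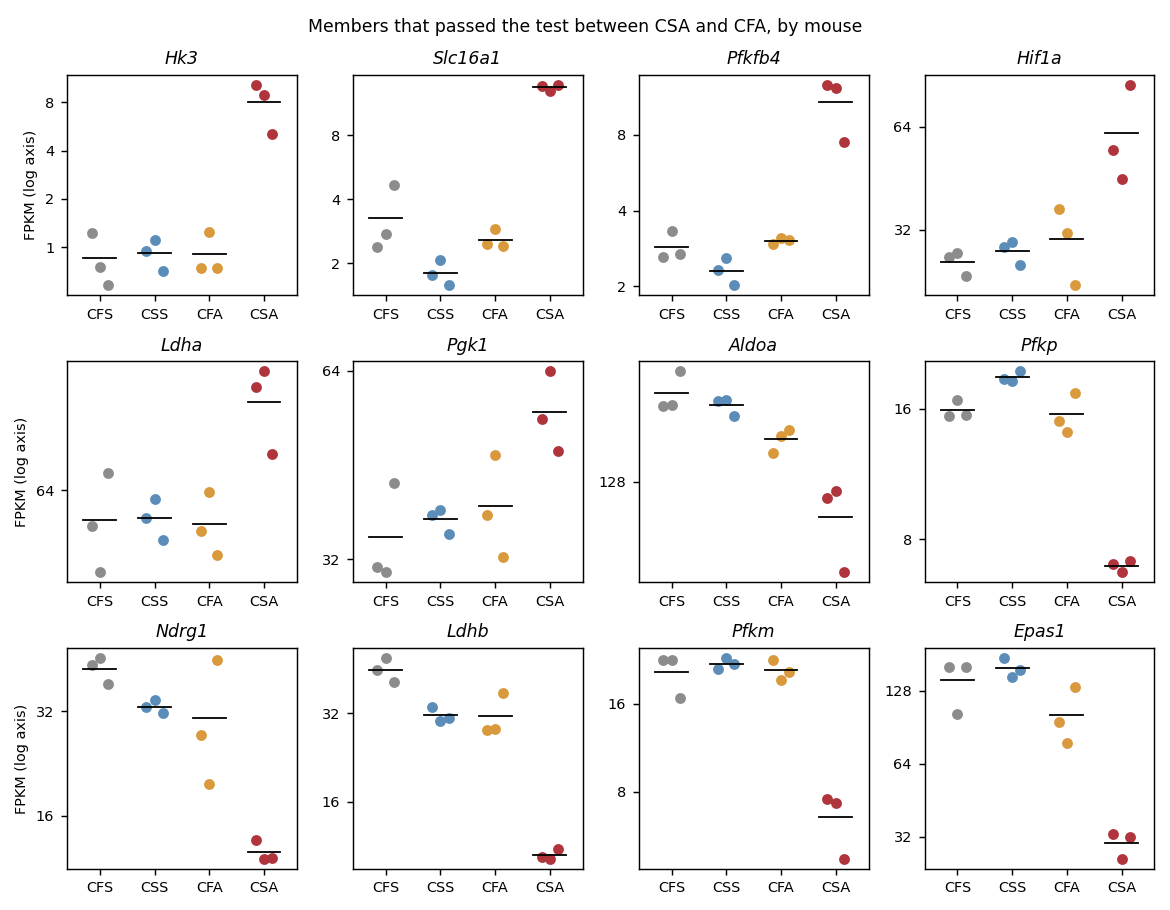
FPKM of the 12 members that passed the test between CSA and CFA, 1 point per mouse on a logarithmic axis with the group mean as a bar, ordered from Hk3 (mean 8.06 in CSA, 0.915 in CFA) to Epas1 (30.3 in CSA, 102 in CFA). In all 12 panels the 3 CSA points lie apart from the 3 CFA points.

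The make-up of each isoenzyme family was then compared within libraries, as the share of 1 gene in the summed FPKM of its family, which does not depend on how libraries were scaled to each other. Hk3 made up 32.4% ± 6.2 (SD, n = 3) of hexokinase in CSA and 4.88% ± 1.21 in CFA, while the hexokinase sum was 24.4 ± 4.34 and 18.5 ± 1.24 FPKM. Ldhb made up 10.4% ± 2.19 of lactate dehydrogenase in CSA and 36.1% ± 6.62 in CFA, at sums of 103 ± 15.8 and 86.8 ± 4.95 FPKM. The 2 sums differed less, relative to their size, than the share of Ldhb. Pfkm made up 30.3% ± 3.56 of phosphofructokinase in CSA and 47.2% ± 3.41 in CFA, and here the sum was lower too, at 21.4 ± 2.93 against 44.1 ± 2.52 FPKM. Pfkl took a mean share of 36.6% in CSA and 17.6% in CFA, while the share of Pfkp overlapped (33.1% and 35.1%). The low aldolase Aldoc was 0.462% of its pair in CSA and 0.174% in CFA.

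Of 11 shares tested between CSA and CFA, 4 (Hk3, Pfkm, Aldoc and Ldhb) did not overlap, and neither did that of Pfkl, which is a description and was not among those tested. Each of the 4 had a two-sided exact permutation p of 0.1, the smallest 3 against 3 mice allow, and 0.314 after Benjamini-Hochberg adjustment over the 22 share comparisons. Slc16a3 was 35.9% ± 20.4 of the 2 lactate transporters in CSA and 53.8% ± 7.29 in CFA, with CSA03 at 12.6% and the other 2 CSA libraries at 44.5% and 50.6%. In saline 3 of the 11 tested shares (Pfkp, Ldhb and Slc16a3) did not overlap between CSS and CFS, nor did that of Pfkl, with Slc16a3 at 60.3% ± 3.87 in CSS against 31.4% ± 7.79 in CFS (exact permutation p = 0.1). The shares of Pgam2, Eno1, Eno3, Slc2a3 and Pdk4 overlapped between CSA and CFA. Over 20 enzyme rows without Gapdh, the summed FPKM was 502 to 704 in CSA, 616 to 677 in CFA, 675 to 728 in CSS and 685 to 776 in CFS, so that the total of glycolytic transcripts in CSA overlapped that of the other groups, with CSA03 lowest.

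**Figure D4:**
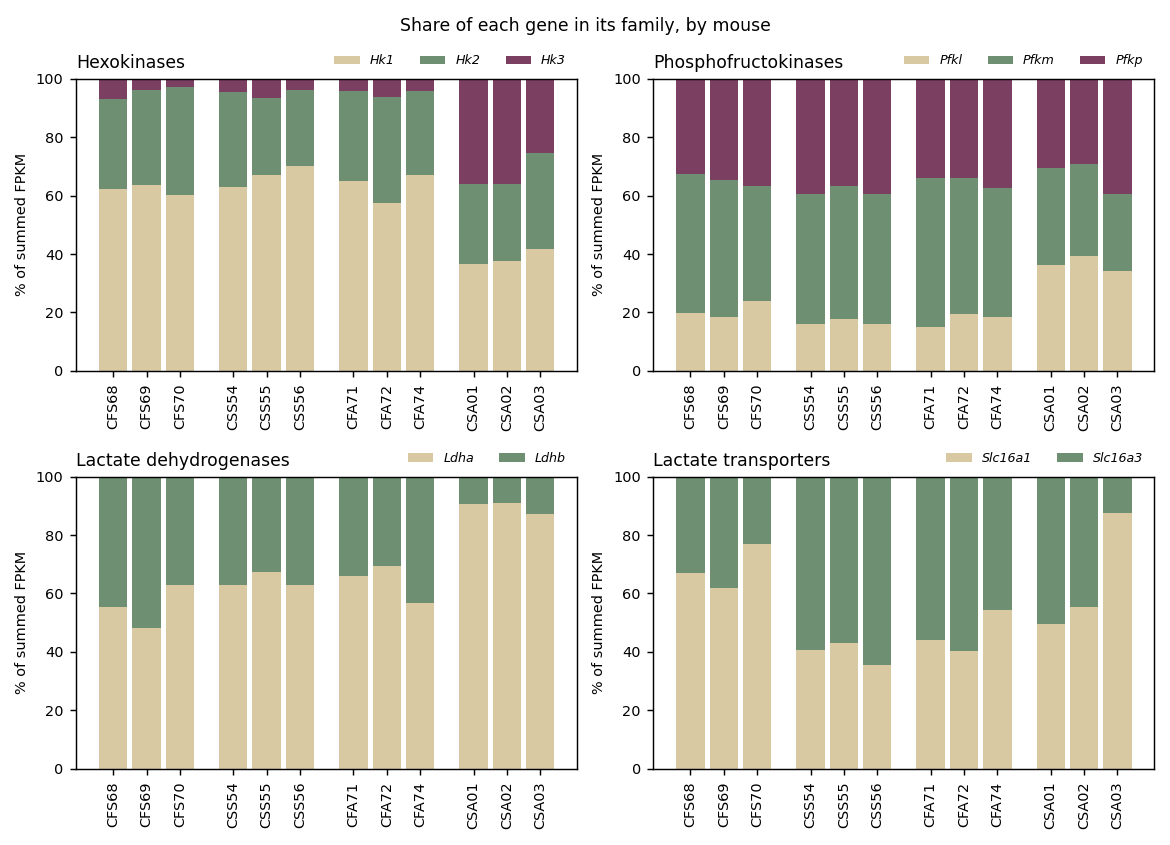
Percent of the summed FPKM of each family taken by each of its genes, 1 stacked bar per mouse, for hexokinases, phosphofructokinases, lactate dehydrogenases and lactate transporters. The 3 CSA bars stand apart in the first 3 panels (Hk3 at 25.3% to 36.1%, Ldhb at 8.86% to 12.9%), and CSA03 stands apart in the last.

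In saline no member passed between CSS and CFS, where 0.0204% of all tested genes did (3 of 14676). An unadjusted p under 0.05 was reached by 4 members, beside 6.3% of all tested genes: Slc16a1, Ldhb, Pdk4 and Pfkp. Slc16a1 was lower in CSS (log2 fold change −0.78, interval −1.26 to −0.30, limma, Benjamini-Hochberg adjusted p = 0.453) and so was Ldhb (−0.51, limma, Benjamini-Hochberg adjusted p = 0.388), which passed with array weights (−0.50, limma, Benjamini-Hochberg adjusted p = 0.0436). Ang II in CCN2fl/fl mice, the comparison of CFA with CFS, also gave 0 members, beside 0.0341% of all tested genes, with 3 members (Ldhb, Pdk4 and Ndrg1) at an unadjusted p under 0.05, beside 9.42% of all. Ldhb and Ndrg1 were lower in CFA than in CFS by 0.67 and 0.87 on the log2 scale when CFA74 was left out, and then passed (limma, Benjamini-Hochberg adjusted p = 0.0318 and 0.0319). With array weights Ldhb passed as lower in CFA (−0.60) and Slc16a3 as higher (1.11, limma, Benjamini-Hochberg adjusted p = 0.0175 and 0.0377).

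In CCN2SMC∆ mice, 16 members passed between CSA and CSS, 7 higher and 9 lower, beside 22.3% and 23.9% of all tested genes (17.7% and 26% of those that met the limit on low values without CSA). These were the 12 members above with the same direction, together with Egln3 as higher (log2 fold change 0.96, limma, Benjamini-Hochberg adjusted p = 0.0137) and Hk1, Gpi1 and Car9 as lower (−0.40, −0.30 and −1.54, limma, Benjamini-Hochberg adjusted p = 0.0185, 0.0361 and 0.0244). Of these added calls, that of Gpi1 was lost in 11 of 20 alternative fits and that of Hk1 in 3 of 20, while Car9 lost its call in 4 of 19 and Egln3 in 3 of 19. Pgk1 lost its call in 4 of 20. This comparison shares its CSA libraries with that of CSA and CFA, so that the same direction is not separate evidence. Whether the effect of genotype differed between Ang II and saline was tested as an interaction. It passed for 3 members in the higher direction (Slc16a1, Hk3 and Pfkfb4) and 4 in the lower (Epas1, Pfkm, Pfkp and Ldhb), beside 12.8% and 13.7% of all tested genes (9.63% and 14.9% of those that met the limit on low values without CSA). For Hif1a, Ldha and Ndrg1 the interaction missed the limit (limma, Benjamini-Hochberg adjusted p = 0.0697, 0.0722 and 0.0899). It passed for Hif1a without CSA02 (limma, Benjamini-Hochberg adjusted p = 0.0309) and for Ndrg1 with array weights or without CFA72 (0.0175 and 0.0115). For Ldha it passed with array weights, without CSA03 or without CFS69 (limma, Benjamini-Hochberg adjusted p = 0.00205, 0.0156 and 0.0383). Slc16a3, Pfkl, Pgk1, Eno1, Pkm and Egln3 passed as higher with array weights or without CSA03.

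Further genes around these pathways, taken from 5 lists chosen with earlier results known, gave 68 tested rows. Of the 67 that met the limit on low values without the CSA libraries, 5 were higher (7.46%, beside 15.5% of all such genes) and 22 lower (32.8%, beside 23.1%) in CSA than in CFA. Those that carry pyruvate into and through the mitochondrion leaned one way, with 8 of 12 lower (66.7%, beside 23.1% of all such genes) and 0 higher (beside 15.5%). Their median log2 fold change was −0.55, against −0.04 over all tested genes. The 3 with the largest change were Pcx, pyruvate carboxylase (−2.51), Pdp2, a phosphatase that activates pyruvate dehydrogenase (−1.32), and Pdk2, a kinase that inhibits it (−1.08). Pcx was at 4.89, 4.79 and 1.91 FPKM in CSA and at 13.1, 19.2 and 35.6 in CFA (limma, Benjamini-Hochberg adjusted p = 0.00648), and its highest value, 71.01, was in CFS70. Mpc1, Pdha1, Pdhb and Dlat, the pyruvate carrier and 3 subunits of pyruvate dehydrogenase, passed as lower at −0.73 to −0.51. Of the 12 tested genes of this list, 7 had their highest value in CFS70, among them Pdha1 (57.9 FPKM), Pdhb (27.6), Dlat (16.6) and Mpc2 (8.53). CFS70 was also highest in the adipocyte markers, of which 5 of 8 were lower in CSA than in CFA, and the part of adipocyte RNA was not tested.

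Of 16 other tested glycolysis genes, 6 were lower (37.5%) and 1 higher (6.25%). Of all genes that met the limit on low values without CSA, 23.1% were lower and 15.5% higher. Slc2a4, the insulin-regulated transporter GLUT4 of muscle and fat, was at 1.40, 1.38 and 0.150 FPKM in CSA and at 7.96, 7.64 and 14.5 in CFA. Its log2 fold change was −3.56 ± 0.59 (limma, Benjamini-Hochberg adjusted p = 0.000677), and −3.99 to −2.70 over fits without 1 mouse, with −2.70 without CSA03. Ldhd, the D-lactate dehydrogenase, was lower (−1.79, a call lost in 1 of 19 alternative fits), and Emb, a chaperone of lactate transporters, was higher (1.64). Of 8 tested pentose phosphate genes, 1 passed (12.5% as higher, beside the 15.5% above, and 0 as lower, beside the 23.1% above). This was Pgd, 6-phosphogluconate dehydrogenase (0.63, limma, Benjamini-Hochberg adjusted p = 0.0364), and that call was lost in 9 of 20 alternative fits. Of 3 tested gluconeogenesis rows Pck1 alone passed, as lower (1 of 3 or 33.3%, beside the 23.1% above, −4.12, limma, Benjamini-Hochberg adjusted p = 0.0131), a call lost in 3 of 20 alternative fits. Over fits without 1 mouse it was −5.22 (without CFA71) to −3.54 (without CFA74), and the call was lost without CFA72, without CFA74 and with array weights, where it was −2.83 (limma, Benjamini-Hochberg adjusted p = 0.0501, 0.0560 and 0.0515). Pck1 is also an adipocyte gene, and its highest value of 202 FPKM was in CFS70. The adipocyte markers summed to 31.1 to 85.7 FPKM in CSA and 111 to 263 in CFA, with 5 of 8 lower. Among them Ucp1 was under 1 FPKM in CSA, but also in CSS, CFS68, CFS69 and CFA71.

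Among 28 other hypoxia genes that met the limit on low values without the CSA libraries, 3 were higher (10.7%, beside 15.5% of all such genes) and 7 lower (25%, beside 23.1%). Adm, the vasodilator peptide adrenomedullin, was at 3.35, 4.16 and 3.83 FPKM in CSA, 16.8, 17.9 and 21.0 in CFA, 12.1, 10.9 and 10.6 in CSS and 27.7, 33.3 and 25.4 in CFS. It was lower in CCN2SMC∆ mice both under Ang II (−2.26, limma, Benjamini-Hochberg adjusted p = 1.31e-06) and in saline (−1.35, limma, Benjamini-Hochberg adjusted p = 0.011), the single gene of these lists and members to pass in saline. The saline call was lost without CFS68, CSS54 or CSS56, at adjusted p of 0.1, 0.0951 and 0.0716 (limma, Benjamini-Hochberg). Nos2, the inducible nitric oxide synthase of activated macrophages, rose by 2.20 on the log2 scale and met the limit on low values only through its CSA libraries (4.29, 2.83 and 1.997 FPKM). Hmox1, heme oxygenase, was at 46.6, 48.8 and 39.6 FPKM in CSA and at 7.18, 17.2 and 7.89 in CFA (2.16, limma, Benjamini-Hochberg adjusted p = 0.000116). Nos2, Hmox1 and the macrophage marker sums given above were all highest in CSA. Outside CSA, Nos2 did not follow these sums, with 0.674 FPKM in CFA74 (sum 336) and 0.652 in CFA72 (sum 712). The part of macrophages was not tested.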

How the data were processed

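RNA-Seq of 12 mouse abdominal aortas, 1 library per mouse, was deposited as 1 table of FPKM with 55092 features. The authors computed the FPKM, and the submitters' processing notes name HISAT2 2.0.5, StringTie 1.3.3b, featureCounts 1.5.0-p3 and the build mm10, without their role or order. Whether strand was used in counting is not given in the sources used here, so overlapping genes cannot be separated by strand. Of 54532 Ensembl features, 54495 had an exon length in GENCODE M21, whose coordinates are printed for genes. With these lengths, 98.0% to 98.5% of the values under 100 fragments per library were whole within 0.05, which gave the recovered depth. The deposited values were also scaled between libraries, since the median log ratio was equal in all 12, so a deposited level is relative to that scaling. A value of 0 allows up to 3 fragments, by counting error only.

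FPKM are not counts, so the count test of the study was not used. Values were taken as log2(FPKM + 0.1), fold changes are on that scale, and low genes are understated by it. Rows with at least 1 FPKM in at least 3 libraries (14676) were fitted with limma 3.58.1 (R 4.3.3, eBayes with trend and robust) with 1 coefficient per group over all 12 libraries. Adjustment followed Benjamini and Hochberg (Benjamini-Hochberg), separately in each comparison over its tested rows, and passing means an adjusted p under 0.05. Genotypes were compared under Ang II and in saline, Ang II was compared with saline in each genotype, and the difference of the genotype effects was tested as an interaction. Isoenzyme shares were compared by two-sided exact permutation tests. Simulated data had independent normal noise, with 1 spread per gene pooled over the 4 groups. In them 100 genes were changed 2-fold and 100 changed 8-fold in CSA. Between CSA and CFA, 51 of 95 tested genes changed 2-fold passed, with 86 of 97 changed 8-fold and 5 of 13544 unchanged. The simulated comparison of CSS with CFS without change gave 0 of 13736. In the data far more genes differed (2864 higher and 3114 lower in CSA than in CFA), and CSA03 stood apart from its group. The simulated rates therefore do not give those of the real comparison.

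Each mouse is a separate animal, and the labels give no batch. The 36 members, the 5 further gene lists and the cell marker lists were chosen with earlier results of these data known. Beyond the members, the 3 genes of each list with the largest change among those passing between CSA and CFA were named, and those named with other values were chosen after their values were seen. Alternatives were another pseudocount (1), filter, scaling between libraries, eBayes setting, library weights and choice of groups, a fold limit of 1.5 on the log2 scale, and leaving out each mouse. Leaving out CFS68 and CSS55 together was chosen after seeing the data. Near copies were stretches at least 95% identical over at least 300 bases, found with BLAST 2.17.0. Python 3.11.15, numpy 2.4.6, pandas 2.3.3 and matplotlib 3.10.9 were used for the rest. Protein sequences were not used here.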

Additional observations from a re-analysis of the deposited data

Results flagged for a closer look

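For 7 of the 34 tested members and for 6 of the 11 pathway genes named by the size of their change, the effect of genotype under Ang II differed from that in saline by the interaction test in limma, with Benjamini-Hochberg adjustment over all tested genes. The values are log2 differences between the 2 effects (CSA minus CFA, less CSS minus CFS), so that a positive value is a higher genotype effect under Ang II. Of all tested genes, 12.8% passed this test with a positive value and 13.7% with a negative one (9.63% and 14.9% of those that met the limit on low values without CSA).

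Among the members, Slc16a1, the lactate transporter MCT1, had 3.13 (limma, Benjamini-Hochberg adjusted p = 7.88e-05), made up of 2.35 under Ang II and −0.78 in saline. Hk3, the myeloid hexokinase, had 2.85 (limma, Benjamini-Hochberg adjusted p = 0.00161), and Pfkfb4 had 2.06 (limma, Benjamini-Hochberg adjusted p = 0.000476). Of the members with a negative value, Epas1 had −1.92, Pfkm −1.78, Pfkp −1.39 and Ldhb −1.03, with limma adjusted p of 0.0014, 0.000685, 0.000125 and 0.00259 by Benjamini-Hochberg.

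Outside the members, Nos2 had 2.97, Hmox1 2.10, Emb 1.32 and Pgd 0.99, with limma adjusted p of 0.00222, 0.00271, 0.0166 and 0.034 by Benjamini-Hochberg. Nos2 met the limit on low values only through its CSA libraries and had to differ, so its test is no independent support. Slc2a4 had −2.95 and Adm −0.92, with limma adjusted p of 0.024 and 0.00635 by Benjamini-Hochberg. Adm was thus lower in CCN2SMC∆ mice in both treatments, with the larger difference under Ang II.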

How the results depend on the processing

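No paired analysis was possible because the mouse numbers are not shared between the groups. Each member of CSA against CFA was computed under up to 20 alternatives. Of its 12 calls, Epas1, Pfkm, Ldhb, Ndrg1, Pfkp, Hif1a, Ldha and Slc16a1 passed in all 20 fits, and Hk3 and Pfkfb4 in the 19 that tested them. Aldoa lost its call in 1 and Pgk1 in 12. Without CSA03, the shallowest library, 11 members were higher, with Slc2a3, Slc16a3, Gapdh, Eno1 and Pkm added. In the simulation, 51 of 95 changes of 2-fold passed, a rate that does not carry over to these data. With 3 mice a group, small changes can still be missed.

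The counts of members passing moved as follows. For CSA against CFA (6 higher, 6 lower), array weights gave 12 higher, the fold limit 3 higher and 3 lower, and leaving out single mice 5 to 11 higher and 6 to 7 lower. For CSS against CFS, array weights gave 1 lower. For CFA against CFS, array weights gave 1 higher and 1 lower, and single mice 0 to 2 lower, with the 2 lower without CFA74. For CSA against CSS (7 higher, 9 lower), a mean FPKM of at least 5 gave 4 higher, array weights 12 higher, and the fold limit 3 higher and 4 lower, with 5 to 10 higher and 6 to 10 lower over single mice. For the interaction (3 higher, 4 lower), a mean FPKM of at least 5 gave 1 higher, array weights 9 higher, the fold limit 2 lower, and single mice 3 to 6 higher and 4 to 5 lower, with 6 higher without CSA03. The stricter mean left Hk3, Pfkfb4, Egln3 and Car9 untested, among other members. The difference in the share of Aldoc, 0.288 percentage points, became 0.635 when 1 FPKM was added to each gene.

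The direction reversed only for members that did not pass. With array weights the log2 fold change of CSA against CFA was 0.035 for Tpi1, 0.14 for Pgam1, 0.15 for Pgam2, 0.19 for Eno3 and 0.17 for Vegfa. With the same total in every library it was 0.0081 for Pgam1, 0.028 for Eno3 and 0.030 for Pdk1, and the median of all tested genes was 0.04 instead of −0.04. Leaving out single mice gave −0.11 to 0.17 for Pfkl, −0.0073 to 0.19 for Pfkfb3, −0.24 to 0.041 for Tpi1, −0.25 to 0.16 for Pgam1, −1.75 to 0.37 for Pgam2, −0.19 to 0.20 for Eno3, −0.15 to 0.060 for Pdk1 and −0.35 to 0.15 for Vegfa. For CSA against CFA, over members and other named genes, 821 values kept direction and call, 26 lost a call, 17 gained one and 20 reversed. The cause was not tested.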
